A study of Mus musculus with 8 samples.

Results

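The miRNAs described here are 57 mouse miRBase entries numbered from 1000 to 5999, among 1881 mouse miRNAs on the array. An entry was taken when its name had the form mmu-miR-N with N in that range and the scanner software marked it as detected on all 4 arrays of the sham group or on all 4 arrays of the injured group. Of 348 entries with such numbers, 6 under 5 names were left out by the rule: miR-1187, both arms of miR-3082, miR-3963, miR-3968 and miR-5100. Among the remaining 342, 267 were detected on no array, 18 were detected on too few arrays, and 57 were members. The members were chosen by these detection marks, so their detection is given as a description. Of the 57, 45 were detected on all 8 arrays, 11 entered through the injured group alone, and 1, miR-1306-3p, through the sham group alone. Comparisons between groups are read for the 45, and the other 12 are given as values.

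The data came from kidneys of male C57BL/6 mice aged 9 weeks, 4 labelled IRI-AKI model and 4 labelled sham model, with 1 Cy3-labelled miRNA array per kidney sample. IRI stands for ischemia-reperfusion injury and AKI for acute kidney injury: the right kidney was removed, and the vessels of the left kidney were clamped for 25 or 45 min and then released, with kidneys taken 12 or 24 h later. The sham mice had a midline incision only, so nephrectomy and clamping cannot be told apart, and clamp and harvest times are not assigned to single samples in the labels. The samples are called sham 1, 2, 3 and 6 and IRI 1, 2, 3 and 18 after their titles. The labels do not say that they were separate animals, so p-values measure the spread between these samples, which may be technical.

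miRNAs are short RNAs cut from hairpin precursors, from the 5p arm, the 3p arm or both, and they guide Argonaute proteins to messenger RNAs mainly through the seed, bases 2 to 8. miRBase numbers follow the order of registration, so the well-conserved families of kidney tubules, such as miR-192, miR-194, miR-30 and miR-200, carry low numbers. Entries with high numbers came mostly from later sequencing, are often specific to rodents, and include mirtrons, which are made from short introns by splicing instead of Drosha cleavage. miR-2861 and miR-3960 lie beside each other in the genome and are known from osteoblast differentiation, and miR-1224 is a well-known mirtron.

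Mature sequences were taken from RefSeq (build GRCm38.p6), which held one for 47 of the 57 members. They are printed 5′ to 3′ with the seed in capitals. The first set holds the members with the largest rises and others rich in G that are described with them.
miR-2861: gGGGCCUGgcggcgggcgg
miR-5126: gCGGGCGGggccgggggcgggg
miR-2137: gCCGGCGGgagccccagggag
miR-1895: cCCCCGAGgaggacgaggagga
miR-3077-5p: cUGCGGACgggugggcgggcaggcc
miR-3102-5p: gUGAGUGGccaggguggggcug
miR-1224-5p: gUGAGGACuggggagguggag
The second set holds members that fell, with let-7g-5p added because it shares 17 bases with miR-3962.
miR-3069-3p: uUGGACACuaaguacugccaca
miR-1839-5p: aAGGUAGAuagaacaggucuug
miR-1198-5p: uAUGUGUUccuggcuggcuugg
miR-3620-3p: cUGCUCAGccccgcccacccca
miR-3962: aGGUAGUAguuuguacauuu
let-7g-5p: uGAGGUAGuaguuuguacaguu
The third set shows how much of their sequence the miR-3473 entries and miR-5128 share.
miR-3473a: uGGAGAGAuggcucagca
miR-3473b: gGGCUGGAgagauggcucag
miR-3473e: gGGCUGGAgagauggcucgua
miR-3473f: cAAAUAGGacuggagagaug
miR-3473g: cAAAAGUGaggcuggggaga
miR-5128: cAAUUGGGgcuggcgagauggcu

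The only seed that 2 members shared was GGCUGGA, of miR-3473b and miR-3473e, and no other tested miRNA had it. Those entries had 18 bases in common (GGGCUGGAGAGAUGGCUC), miR-3473a and miR-3473b had 16 (UGGAGAGAUGGCUCAG), and miR-5128 shared 9 with each of miR-3473a, miR-3473b and miR-3473e (GAGAUGGCU). Each member was read by 2 to 4 probes of 9 to 20 bases. All 100 probes of members with a sequence paired with the 3′ end of their miRNA. For 2 of them, both of miR-3473b, the paired stretch was also found in another mature miRNA, miR-3473a, among 1679 mouse sequences searched. Probes for G-rich members were short. The 2 probes of miR-2861 have 9 and 10 bases:
miR-2861, shorter probe: ccgcccgcc
miR-2861, longer probe: ccgcccgccg

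Values are scaled signals: spot intensities summed over the probes of a miRNA and divided by a factor per array, the 75th percentile of the signals of 317 miRNAs that all 8 arrays detected. Signals of different miRNAs come from different probes, so levels are compared between arrays and not between miRNAs. Sham arrays had 47 to 52 detected members and IRI arrays 56 or 57, while all detected miRNAs numbered 327 to 379 and 393 to 447. All 5 tubule markers, miR-192-5p, miR-194-5p, miR-30a-5p, miR-204-5p and miR-200b-3p, were detected on all 8 arrays, with summed signals of 17412 to 20068 in sham and 12614 to 14273 in IRI. The 3 red cell markers summed to 43 to 902 in sham and 2939.6 to 4087 in IRI, with miR-486a-5p detected on no sham array. The 3 leukocyte markers, miR-223-3p, miR-142a-3p and miR-150-5p, summed to 418 to 563 and 625 to 904, although miR-150-5p alone was 37.8 to 42.5 in sham and 17.8 to 38.9 in IRI. Of the muscle markers, miR-133a-3p and miR-206-3p were detected on no array, and the 3 summed to 29.8 to 43.1 in sham and 19.9 to 31.5 in IRI. The liver marker miR-122-5p was detected on 1 array, IRI 1, at 33.5. IRI 1 had the highest tubule, red cell and leukocyte sums of the 4 IRI arrays and IRI 3 the lowest, and the part of other cell types in the results was not tested. In whole tissue, fewer cells of a type and less RNA per cell cannot be told apart. Sham arrays lay in 1 row of the slide and IRI arrays in the other, so slide row and group cannot be told apart.

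Between IRI and sham, 3 of the 45 members rose (miR-3960, miR-2137 and miR-1895) and 7 fell (miR-3069-3p, miR-1839-5p, miR-3473g, miR-1198-5p, miR-3620-3p, miR-1839-3p and miR-3962), and 35 did not pass the test. The test was limma over 379 miRNAs with Benjamini-Hochberg adjustment at 0.05. Among the 317 miRNAs detected on all 8 arrays, 9.15% were called higher and 42.9% lower, against 6.67% and 15.6% of the members. The median log2 change was 0.13 over the members and -0.19 over the 317. Entries numbered below the range, with let-7, had a median of -0.33 (n = 196, of which 61.2% were called lower), and entries numbered above it 0.11 (n = 71, of which 9.86% were called lower). The members' groups did not overlap in 3 cases with IRI above and 6 with IRI below, against 8.52% and 42% of the 317. The difference between members and other miRNAs was not tested.

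The calls lower rest on the scaling. Without scaling, the median log2 change over the 379 miRNAs moved from -0.11 to 0.17, and scaling to the spike-in probes gave 0.19. Over the 379 miRNAs, 46 were higher and 139 lower with the scaling, 53 and 1 without it, and 72 and 2 with the spike-in probes. Among the 45 members, limma called 4 higher and 0 lower without scaling (20 higher and 0 lower at an unadjusted p under 0.05), and 10 higher and 0 lower with the spike-in probes (22 and 0 unadjusted). The members' median log2 change was 0.43 without scaling and 0.45 with the spike-in probes. A lower call below therefore means a fall relative to the scaling factor of the arrays, not relative to the typical detected miRNA. With the scaling, the median log2 change over the 317 was itself -0.19. Whether a called member fell by more than that median was not tested. The direction of many members without a call depended on the processing. With normexp background correction, the members' median turned to -0.08. Of the 45, 18 turned from a positive to a negative change, leaving 11 positive where 29 had been. The normexp run also added an offset of 50 to each spot before probes were summed and arrays scaled. Its values here and below therefore cannot tell the offset and the correction apart.

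**Figure D1:**
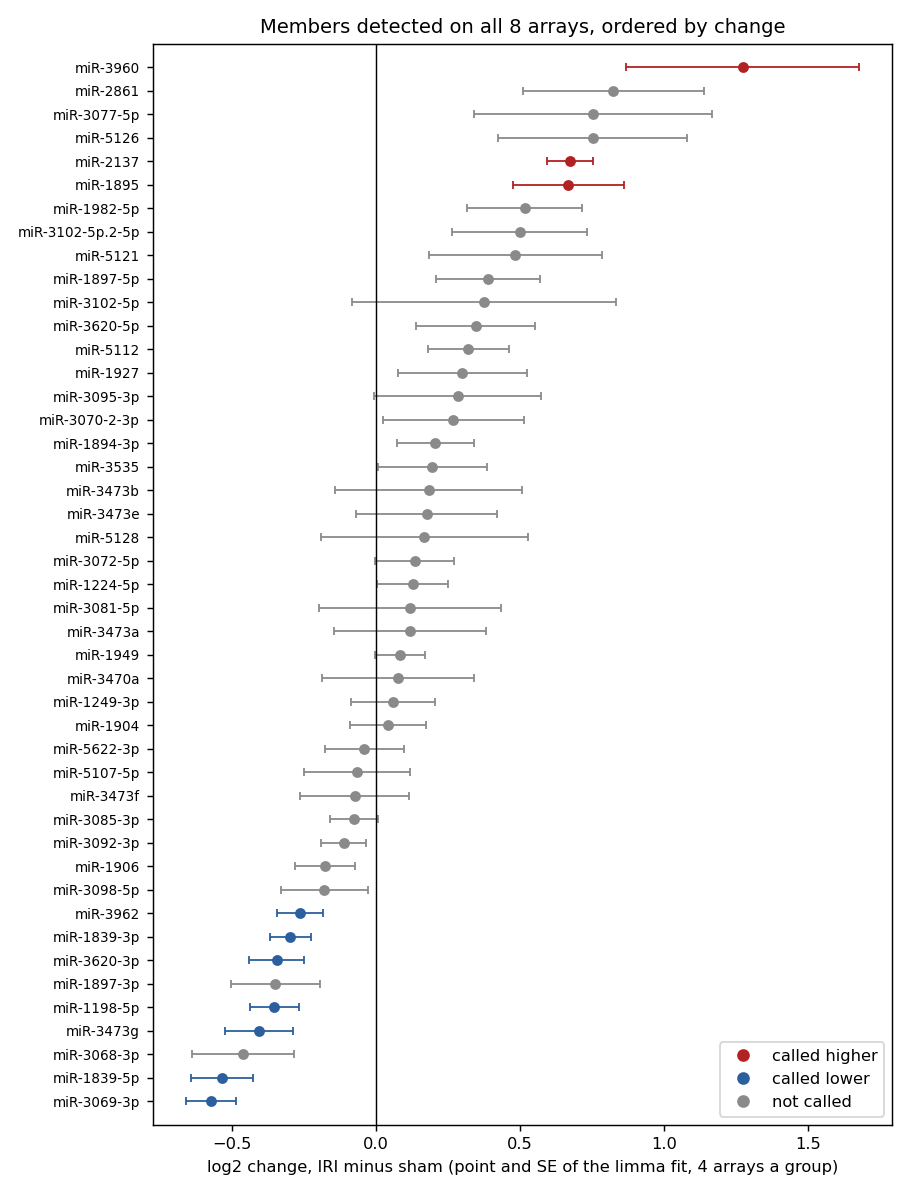
Log2 change between IRI and sham (x axis) for the 45 members detected on all 8 arrays, ordered by change, with the standard error of the limma fit. Red marks the 3 members called higher, blue the 7 called lower and grey the 35 not called; miR-3960 lies highest at 1.27 and miR-3069-3p lowest at -0.57.

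miR-3960 had the largest rise among the members. The sham arrays gave 494, 601, 392 and 433 (replicates 1, 2, 3 and 6), and the IRI arrays 2603, 1163, 625 and 904 (replicates 1, 2, 3 and 18). Every IRI array lay above every sham array, although IRI 3 was close to sham 2 and IRI 1 stood far above the rest. The log2 change was 1.27 ± 0.40 (SE, n = 4 per group; limma, adjusted p = 0.0314), a 2.41-fold rise. Without IRI 1 it was 0.88 and still called. The call was lost without any one of sham 1 (1.29), sham 3 (1.18), sham 6 (1.23), IRI 2 (1.26) or IRI 18 (1.38), with adjusted p between 0.0143 and 0.0805 over the 8 omissions. It was also lost without scaling, and over 25 alternatives the adjusted p in limma reached 0.298.

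miR-2861, its neighbour, had higher signals in IRI but did not pass the test. Its signals were 113, 122, 103 and 120.1 in sham and 392, 202, 126 and 167 in IRI, in the same order as for miR-3960 among the IRI arrays. The groups did not overlap, and the log2 change was 0.82 ± 0.31 (SE, n = 4 per group; limma, adjusted p = 0.0611). It was called without IRI 1 (0.50) and without IRI 3 (1.05). miR-5126, which consists of G and C alone, gave 855, 956, 769.6 and 864 in sham and 2880.2, 1442, 877 and 1199 in IRI. IRI 3 fell inside the sham range here, and the log2 change was 0.75 ± 0.33 (SE, n = 4 per group; limma, adjusted p = 0.0935). Without IRI 3 it was called at 0.99, and without IRI 1 it was 0.42 and not called.

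miR-2137 had the smallest spread of the risers. Its hairpin lies within Zfp185 on the X chromosome (mature miRNA at chrX:72992113-72992133, plus strand, GRCm38.p6). Sham signals were 126, 136, 142 and 155, and IRI signals 224, 230.1, 229.7 and 206, so the groups were clearly apart. The log2 change was 0.67 ± 0.08 (SE, n = 4 per group; limma, adjusted p = 0.000749), and it was called under every alternative run, between 0.34 and 1.00. Both of its probes were higher in IRI, with log2 changes of 0.29 for the 12-base probe and 0.82 for the 13-base probe.

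miR-1895, within Cxxc4, gave 112, 101, 108 and 144 in sham and 213, 175, 130.1 and 228 in IRI. IRI 3 lay below sham 6, so the groups overlapped. The log2 change was 0.67 ± 0.19 (SE, n = 4 per group; limma, adjusted p = 0.0223). It lost its call without any one of sham 1 (0.65), sham 2 (0.61), sham 3 (0.64), IRI 1 (0.59) or IRI 18 (0.56), and fell to 0.30 with normexp background correction, where it was not called.

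Several other members, most of them G-rich, shared the high value on IRI 1, while other G-rich members did not. miR-3077-5p gave 75.7 on IRI 1 against 23.5, 15.2 and 26.3 on IRI 2, 3 and 18, and 13.7 to 19.4 in sham, where it was well above background on no array. Against that background limit, its IRI mean was at least 1.48-fold higher, or 1.08-fold without IRI 1. Its log2 change of 0.75 ± 0.41 (SE, n = 4 per group; limma, adjusted p = 0.165) was 0.29 without IRI 1 and -0.01 with normexp. Its signals on sham 2, sham 6 and IRI 3 lay under the floor used for log2, so the fitted 0.75 depends in part on that floor. miR-3102-5p gave 356 on IRI 1 against 124, 70.3 and 103, with 86.5 to 124 in sham. miR-3081-5p gave 227 on IRI 1 against 91.7, 79.2 and 95.7, with 86.8 to 114 in sham. For miR-3081-5p the other 3 IRI arrays lay within or below the sham range, and for miR-3102-5p IRI 2 lay level with the highest sham array and the other 2 within or below the range. The log2 change went from 0.37 to -0.10 and from 0.12 to -0.22 without IRI 1. The ratio of IRI 1 to IRI 3 was 4.16 for miR-3960, 3.12 for miR-2861, 3.28 for miR-5126, 4.99 for miR-3077-5p, 5.06 for miR-3102-5p and 2.86 for miR-3081-5p. For miR-3077-5p the IRI 3 signal in this ratio lay under the floor. For miR-2137, miR-1894-3p, miR-3072-5p, miR-3102-5p.2-5p and miR-1224-5p, also rich in G, that ratio was 0.98 to 1.21. miR-1982-5p, in Oaz1, was higher on IRI 1 (60.2), IRI 2 (36.8) and IRI 18 (45.6) than on any sham array (25 to 33), and IRI 3 (32) lay inside the sham range. Its log2 change was 0.52 ± 0.20 (SE, n = 4 per group; limma, adjusted p = 0.0634), and -0.04 with normexp.

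**Figure D2:**
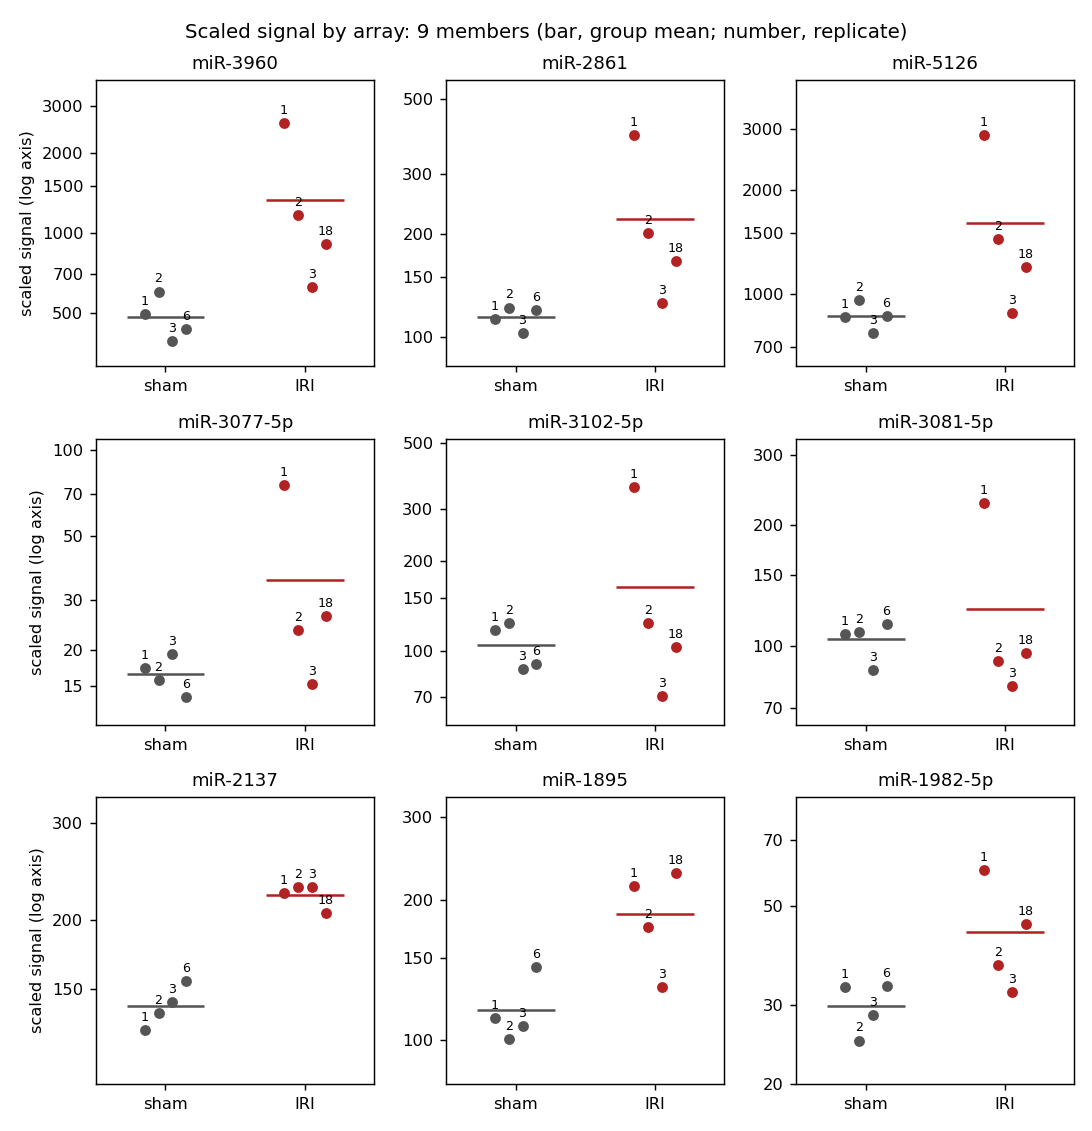
Scaled signal on a log axis for 9 members, by group, with the replicate number above each array and a bar at the group mean. IRI 1 is the highest IRI array for miR-3960 (2603), miR-2861 (392), miR-5126 (2880.2), miR-3077-5p (75.7), miR-3102-5p (356), miR-3081-5p (227) and miR-1982-5p (60.2), and the 4 IRI arrays of miR-2137 lie between 206 and 230.1.

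miR-3069-3p fell most among the 45. Its hairpin lies in Scarna13, a small Cajal body RNA gene within Snhg10, at chr12:105031078-105031099 (minus strand, GRCm38.p6) for the mature miRNA. Signals were 45.8, 42.1, 52.6 and 47.7 in sham and 34.9, 31.2, 30.1 and 30.2 in IRI, with no overlap. The log2 change was -0.57 ± 0.09 (SE, n = 4 per group; limma, adjusted p = 0.00143).

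Both arms of miR-1839, in the long noncoding RNA gene 2900076A07Rik, fell. miR-1839-5p gave 107, 93.8, 101 and 80.9 in sham and 74.5, 65.9, 59.2 and 63.8 in IRI (log2 change -0.54 ± 0.11, SE, n = 4 per group; limma, adjusted p = 0.00495). miR-1839-3p gave 235, 211, 236 and 233 in sham and 201, 181, 192 and 171 in IRI (-0.30 ± 0.07; limma, adjusted p = 0.0105), a direction that turned to 0.01 without scaling and 0.03 with the spike-in probes. Neither arm's groups overlapped.

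The other falls were small. miR-1198-5p, in Gripap1, went from 57.1 ± 4.18 in sham to 44.7 ± 3.87 in IRI (SD, n = 4 each), with no overlap and a log2 change of -0.35 ± 0.08 (limma, adjusted p = 0.0104). miR-3620-3p went from 43 ± 4.79 to 33.7 ± 2.45 (SD, n = 4 each), also without overlap, with a log2 change of -0.35 ± 0.10 (limma, adjusted p = 0.0192). It lost its call without sham 3 (-0.29), sham 6 (-0.31) or IRI 2 (-0.29). miR-3962 lay at 20.4, 20.5, 23.8 and 18.5 in sham and 15, 13.3, 13.5 and 12.2 in IRI. All 4 of its IRI values were under the floor of 17.3 used for log2, so the fitted change of -0.26 ± 0.08 (SE; limma, adjusted p = 0.0274) is no measured size. It was well above background on 2 sham arrays and on no IRI array, and its sham mean was at least 1.43-fold higher than the limit in IRI. Leaving out any one IRI array ended its call (-0.22, -0.21, -0.22 and -0.26 without IRI 1, 2, 3 and 18). let-7g-5p, which shares the stretch AGGUAGUAGUUUGUACA with it, went from 5654 ± 299 to 3778 ± 229.6 (SD, n = 4 each; log2 change -0.58 ± 0.07, limma, adjusted p = 0.000749). Whether the probes of miR-3962 read let-7g-5p was not tested.

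Each slide column held 1 array of either group. Within all 4 columns the 3 called risers were higher in IRI, with log2 differences of 0.67 to 2.40 for miR-3960, 0.41 to 0.83 for miR-2137 and 0.27 to 0.94 for miR-1895. Within all 4 the 7 called fallers were lower in IRI, from -0.80 to -0.39 for miR-3069-3p, -0.77 to -0.34 for miR-1839-5p, -0.51 to -0.31 for miR-3473g, -0.59 to -0.17 for miR-1198-5p, -0.45 to -0.09 for miR-3620-3p and -0.44 to -0.22 for miR-1839-3p. For miR-3962, whose IRI values all lay under the floor, no size is given. Only miR-1895 and miR-3473g among the called members had groups that overlapped. For the others, any pairing of a sham with an IRI array gives the same direction. All were picked by the group test on these arrays, so the columns add no separate evidence on direction. With the column as a block, the adjusted p of limma was 0.0084 to 0.036 for 9 of the 10, and 0.0549 for miR-3962, which lost its call. The block also added calls for miR-3102-5p.2-5p (0.50, adjusted p = 0.0107), miR-1982-5p (0.52, adjusted p = 0.0276) and miR-5112 (0.32, adjusted p = 0.0496).

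miR-3473b gave 3244, 3806, 5844 and 7064 in sham and 3689.9, 5188, 5103 and 8659 in IRI. The groups overlapped throughout, and the log2 change was 0.18 ± 0.32 (SE, n = 4 per group; limma, adjusted p = 0.647). Its sham arrays differed 2.18-fold and its IRI arrays 2.35-fold, more than the groups did. miR-3473a, which shares most of its bases, gave 448, 486, 689 and 836 in sham and 504, 590.5, 602 and 972 in IRI, again highest on sham 6 and IRI 18 and lowest on sham 1 and IRI 1 (log2 change 0.12 ± 0.26; limma, adjusted p = 0.713). Without sham 1 the log2 changes of miR-3473b and miR-3473a were 0.00 and -0.02, and without IRI 18 they were -0.04 and -0.08.

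miR-3473e and miR-5128 were again highest on sham 6 and IRI 18, the 2 arrays of the fourth slide column. miR-3473e gave 44, 39.7, 54.5 and 76.9 in sham and 62.6, 56.8, 43.4 and 77.1 in IRI. miR-5128 gave 123, 104, 142 and 312 in sham and 189, 162, 123 and 238 in IRI, and its sham arrays differed 3-fold. miR-3473f gave 103.5 to 158 in sham and 88.4 to 141 in IRI. None of these 3 was called, with adjusted p from 0.558 to 0.745 (limma). miR-3473g, which shares no more than 6 bases in a row with miR-3473a, b or e, was the one entry of the name that was called. It gave 664, 608, 759.8 and 773 in sham and 495, 465, 533 and 624 in IRI, where IRI 18 lay above sham 2. The log2 change was -0.41 ± 0.12 (SE, n = 4 per group; limma, adjusted p = 0.0222). The call was lost without sham 3 (-0.36), sham 6 (-0.36), IRI 1 (-0.38) or IRI 2 (-0.35).

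**Figure D3:**
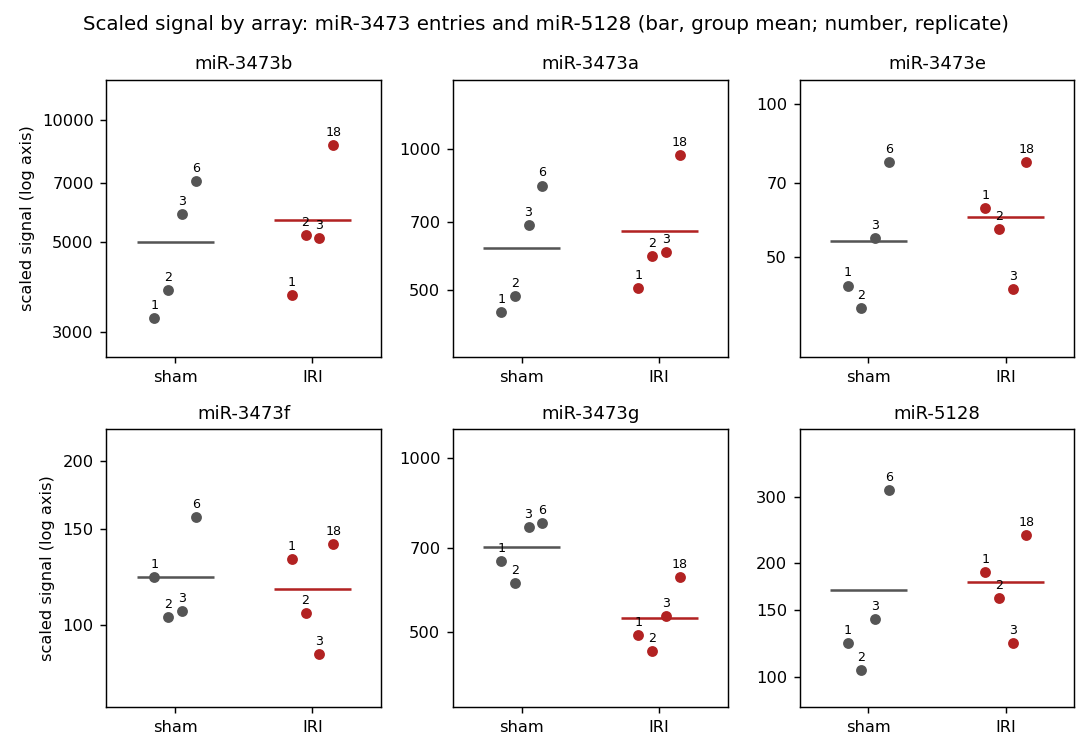
Scaled signal on a log axis for 5 miR-3473 entries and miR-5128, by group, with the replicate number above each array and a bar at the group mean. Sham 6 and IRI 18 are the highest arrays of their groups in all 6 panels, and the IRI mean lies below the sham mean for miR-3473g (529 against 701) and miR-3473f (117 against 123).

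Neither miR-1224-5p nor miR-5622-3p differed between groups beyond the spread of its arrays. miR-1224-5p, from an intron of Vwa5b2, gave 1282, 1729.9, 1420.2 and 1769 in sham and 1873, 1571, 1542 and 1742 in IRI (log2 change 0.13 ± 0.12; limma, adjusted p = 0.419), and was called only after quantile normalization (0.35). miR-5622-3p, in Tpx2, was 175 ± 25.5 in sham and 170.5 ± 25.3 in IRI (SD, n = 4 each; log2 change -0.04 ± 0.14, limma, adjusted p = 0.791). Of the 57, 33 were well above background on all 8 arrays and 15 on no sham array.

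The order of the arrays within a group was uneven over the members. Among the 45, sham 6 was the highest sham array for 25 and IRI 18 or IRI 1 the highest IRI array for 20 and 21. IRI 3 was the lowest IRI array for 24 and sham 2 the lowest sham array for 24. Among the 196 entries below the range, IRI 1 was highest for 63.3% and IRI 18 for 20.4%, against 46.7% and 44.4% of the members, and sham 6 was highest for 24.5% against 55.6%. Among the 71 entries above the range, sham 6 was highest for 59.2%, IRI 18 for 42.3% and IRI 1 for 32.4%. The median within-group SD of log2 signal was 0.20 in sham and 0.31 in IRI over the members. It was 0.20 and 0.27 over the 71 entries above the range, and 0.10 and 0.13 over the 196 below it. The 4 IRI arrays differed by over 2-fold for 9 members, or 20%, and for 8.46% of the 272 other miRNAs detected on all 8 arrays. These differences in spread were not tested.

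The share of G in the sequence went with the change. Across the 37 members with a sequence, the rank correlation (Spearman) between G share and log2 change was 0.686, and that of the G and C share 0.599. Without IRI 1 the first value was 0.537. Over the 63 entries above the range it was 0.408, and over the 168 below it 0.052. The points share the same 8 arrays, and G-rich members had shorter probes (rank correlation of G share and longest probe -0.606). The part of probe length was not tested. Of the 10 members with at least 70% G and C, 9 had a positive log2 change, with a median of 0.59, and the exception was miR-3620-3p, which is rich in C with 13.6% G. Among the 9 was miR-3077-5p, with 2 sham values and 1 IRI value under the floor used for log2. Of the 27 members with less than 70% G and C, 14 had a positive change, with a median of 0.04. With normexp, 5 of the 10 were positive, with a median of 0.08, and 4 of the 27, with a median of -0.11, while the rank correlation with G share was 0.732. The 10 other miRNAs of at least 70% G and C had a median of 0.60, and the 226 with less -0.26.

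**Figure D4:**
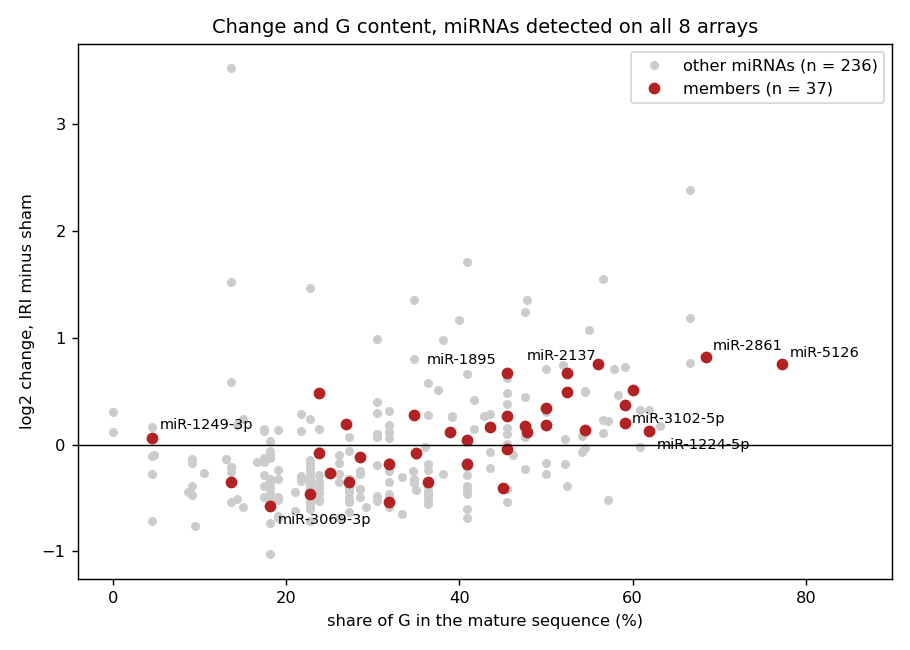
Log2 change between IRI and sham (y axis) against the share of G in the mature sequence (x axis) for miRNAs detected on all 8 arrays, with 37 members in red and 236 other miRNAs in grey. The 10 members above 50% G lie above 0, from miR-1224-5p at 0.13 to miR-2861 at 0.82, and the lowest member is miR-3069-3p at -0.57.

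Arms were compared by the log2 ratio of the 5p to the 3p signal on the same array, which removes the scaling. Of 26 precursors with both arms detected on all 8 arrays, 30.8% had a ratio that passed the test (19.2% higher and 11.5% lower in IRI), and 3 were members: miR-1897, miR-3620 and miR-1839. For miR-1897, in Sox2ot, the ratio was -1.07, -1.15, -0.94 and -1.20 in sham and -0.12, -0.06, -0.80 and -0.42 in IRI, every IRI array above every sham array. It rose by 0.74 ± 0.16 (SE, n = 4 per group; limma, adjusted p = 0.0146). The single arms did not pass the test, with log2 changes of 0.39 ± 0.18 for miR-1897-5p and -0.35 ± 0.16 for miR-1897-3p (adjusted p = 0.112 and 0.0973). With the slide column as a block, the ratio's adjusted p in limma was 0.0635, and it was not called.

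For miR-3620 the ratio was -0.68, -0.90, -1.04 and -0.75 in sham and 0.27, -0.17, -0.70 and 0.01 in IRI, with IRI 3 inside the sham range. It rose by 0.69 ± 0.20 (SE, n = 4 per group; limma, adjusted p = 0.04). miR-3620-5p was dim, 24 ± 2.56 in sham and 31.4 ± 9.35 in IRI (SD, n = 4 each), and well above background on no sham array. The call for the ratio was lost in 7 of the 8 omissions, all except that of IRI 3, with values from 0.55 to 0.88, and with normexp background correction (0.14). For miR-1839 the ratio was -1.13, -1.17, -1.23 and -1.52 in sham and -1.43, -1.45, -1.70 and -1.42 in IRI, a difference of -0.24 ± 0.10 (SE, n = 4 per group; limma, adjusted p = 0.136). Sham 6 lay inside the IRI range, and without it the difference was called at -0.33. miR-3102-5p and miR-3102-5p.2-5p, cut from adjoining stretches of 1 precursor arm, differed in their order over the arrays: IRI 1 was highest for the first (356) and IRI 18 for the second (89.4 against 60.7, 53 and 51.3 on IRI 1, 2 and 3). By arm name, 13 of the 45 members are 5p (0 higher, 2 lower), 12 are 3p (0 higher, 3 lower) and 20 have no arm in their name (3 higher, 2 lower). Over the 317 miRNAs detected on all 8 arrays, 9.15% were called higher and 42.9% lower. Differences between arm names were not tested.

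The hairpins of miR-2861 and miR-3960 lie 11 bases apart on the minus strand of chromosome 2, inside no gene listed by RefSeq (chr2:32712807-32712888 and chr2:32712900-32712972, GRCm38.p6). They are shown because they are the closest pair among the members, with mature miR-2861 in capitals in the first.
Mir2861: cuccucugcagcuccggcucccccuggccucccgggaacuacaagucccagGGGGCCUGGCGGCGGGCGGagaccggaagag
Mir3960: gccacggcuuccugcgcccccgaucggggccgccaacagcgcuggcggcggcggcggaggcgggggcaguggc
The log2 ratio of miR-2861 to miR-3960 was -2.13, -2.30, -1.94 and -1.85 in sham and -2.73, -2.53, -2.32 and -2.44 in IRI, with no overlap. It fell by 0.45 ± 0.12 (SE, n = 4 per group; limma, adjusted p = 0.015). The size depended on the probe of miR-2861: its 9-base probe rose by 1.04 and its 10-base probe by 0.64. The 11-base and 12-base probes of miR-3960 rose by 1.32 and 1.23. The ratio with the 9-base probe alone was not tested. Of 58 neighbouring pairs within 10 kb on 1 strand, 44.8% had a ratio that passed the test. The difference stayed called in all 8 omissions, between -0.53 and -0.37. Over replicates 1 to 3 alone it was -0.40 and not called, with an adjusted p in limma of 0.0644, or 0.0706 with the replicate number as a block.

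The only other neighbouring pair with a member was miR-3154 and miR-199b-5p, 116 bases apart. miR-3154 entered through the IRI group and gave 18.6, 17.1, 14.5 and 20.4 in sham and 45.1, 25.4, 20.5 and 28.2 in IRI. miR-199b-5p was 255 ± 22 in sham and 182 ± 41.4 in IRI (SD, n = 4 each; log2 change -0.51 ± 0.18, limma, adjusted p = 0.0469). The ratio of this pair was not tested.

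**Figure D5:**
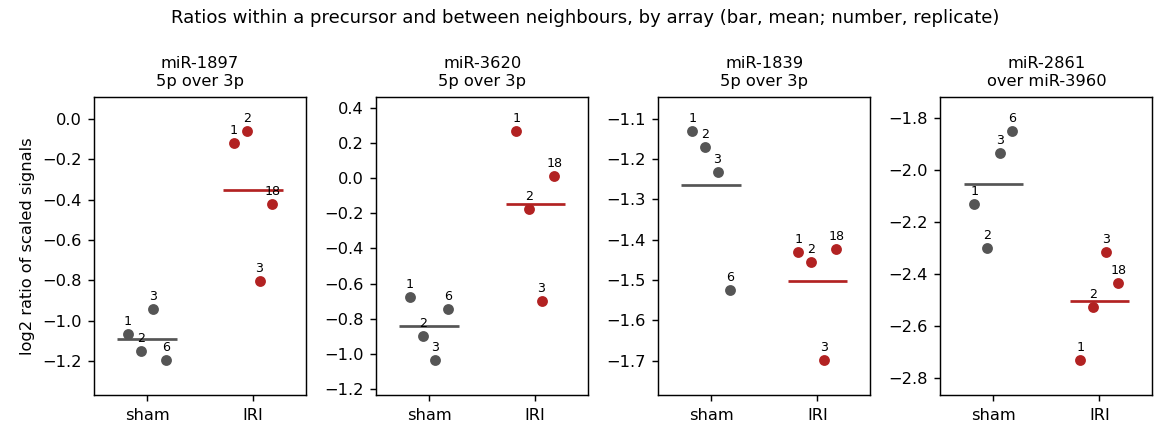
Log2 ratio of scaled signals on each array (y axis) for the arms of miR-1897, miR-3620 and miR-1839 and for miR-2861 over miR-3960, by group, with the replicate number above each array and a bar at the mean. The groups do not overlap for miR-1897 and for the neighbours, while IRI 3 of miR-3620 (-0.70) and sham 6 of miR-1839 (-1.52) lie inside the other group.

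The 12 members that were not detected on all 8 arrays are given without a test, because detection in 1 group brought them in. Their mean signals were 9.71 to 29.3 in sham and 16.8 to 32.1 in IRI. miR-1896, miR-3472 and miR-5131 were detected on no sham array. miR-3472, in Rtl4, gave 5.12, 6.36, 7.02 and 20.3 in sham and 32.5, 22.8, 18 and 51.4 in IRI, where it was well above background on 3 arrays and at least 1.42-fold above the sham limit. miR-1896 gave 13 to 20.7 in sham and 19.3 to 33.1 in IRI, and miR-5131 gave 13 to 18.3 in sham and 13.2 to 22.5 in IRI and was well above background on no array. miR-5099 gave 10.6, 12.3, 11.8 and 12 in sham and 25.3, 21.3, 18.5 and 28.3 in IRI, at least 1.14-fold above the sham limit. miR-1306-3p, within Dgcr8, which codes for the partner of Drosha, gave 30.8, 24.7, 29.6 and 32.1 in sham and 20, 14.4, 15.2 and 19.4 in IRI. It was well above background on no array of either group, so no fold is given.

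Just outside the rule, 2 entries were detected on 3 of 4 arrays of a group. miR-3475-5p, detected on 3 sham and 2 IRI arrays, gave 23.8, 24.7, 27.8 and 23.7 in sham and 21.5, 15.9, 17.4 and 20.5 in IRI. miR-5130, detected on 1 sham and 3 IRI arrays, gave 16.1, 10.8, 13.9 and 14.6 in sham and 18, 11.6, 9.7 and 21.3 in IRI. Just inside it, miR-1947-3p and miR-5620-3p were detected on 3 sham and 4 IRI arrays. miR-1947-3p gave 22.5 to 27.2 in sham and 24.9 to 26.7 in IRI, and miR-5620-3p gave 17.6 to 21.3 and 16.2 to 22.2. Of the 18 entries detected without being members, 14 were detected on no sham array.

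RefSeq gave a hairpin position for 46 genes of the members. Of these, 36 lay inside a protein-coding gene, 5 inside long noncoding or small RNA genes, and 5 inside no listed gene. Among the genes around them were Dner for miR-5126, Ccdc162 for miR-3473b, Syap1 for miR-3473a, Boc for miR-3081-5p and Sap18 for miR-3077-5p. The strands were not compared, so a gene around a hairpin need not be its host. The array did not measure transcripts of these genes.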

How the data were processed

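Linear spot intensity was read from the deposited scanner output. The submitters' processing notes name Agilent Feature Extraction 12.0.3.1 as the software. A fitted background had been subtracted from each spot, with no normalization between arrays, per the file headers (design build mm9). All 8 arrays lay on 1 slide. A deposited table by the authors gives 1 linear ratio for each miRNA and array, with the way it was made not stated. Its columns followed the scanner's total gene signals, so a higher ratio is more signal, but its scaling and centring stay unknown (column medians 0.859, 1.23, 1.29 and 1.3 for sham, 0.658, 0.646, 1.16 and 0.749 for IRI). It served as an alternative. Outlier spots were left out, probe signals summed, arrays scaled by the 75th percentile, and values raised to a floor of 17.3 (5th percentile of detected miRNAs) before log2. No saturated spot occurred. For the 10 called members, no probe opposed the sum, and 2 had a probe at its floor. limma 3.58.1 (R 4.3.3) was run on the 379 miRNAs that all 4 arrays of a group detected (two-sided, Benjamini-Hochberg), tested on simulated data; precision is limited by 4 arrays per group. An at-least fold sets the brighter mean against, per array, the higher of the dim miRNA's signal and the lowest signal well above background. Members and lists were chosen with earlier results of these data known. Named miRNAs were the calls, the 8 brightest, those undetected in a group, arm and neighbour pairs, miR-1224-5p and entries at the edge of the rule; others were named after their values were seen. A genome of build mm9 was not used here.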

Additional observations from a re-analysis of the deposited data

Results flagged for a closer look

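Over 99 groups of 4 arrays with all values above the floor, 3 held an array far from the other 3 of its group; chance marks about 1 in 20 groups. miR-3095-3p was 84.2 on IRI 18, and 42 to 44 on the other IRI arrays. miR-3098-5p was 207 on sham 6, and 155 to 157 on the other sham arrays. miR-1839-3p was 211 on sham 2, and 233 to 236 on the other sham arrays.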

How the results depend on the processing

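Members called higher and lower are given first, with the calls over all tested miRNAs in brackets. The reported fit gave 3 and 7 (46 and 139 of 379). The percentile over all miRNAs gave 5 and 9 (43 and 144), and quantile normalization 5 and 10 (47 and 128). The spike-in probes gave 10 and 0 (72 and 2), and no scaling 4 and 0 (53 and 1). The brightest probe alone gave 6 and 6 (58 and 124), and the slide column as a block 6 and 6 (49 and 125). With all 1881 miRNAs tested there were 1 and 2 (21 and 90). Leaving out each array gave 1 to 9 higher and 4 to 7 lower (36 to 64 and 114 to 144). Whether replicate numbers 1 to 3 pair the samples could not be settled. The correlations of same-numbered deviations, -0.085, -0.143 and 0.276, lay within the range of arrays of different columns. Over replicates 1 to 3, the replicate block gave 5 and 6 calls (35 and 127) and no block 4 and 5 (42 and 126). Replicates 1 to 3 also lay in slide columns 1 to 3, so the replicate block is the column block without column 4. The arrays of column 4, sham 6 and IRI 18, had a correlation of 0.595, and arrays of different columns -0.415 to 0.431. Of the 10 called members, 10 kept direction and call with the deposited ratio table, outlier spots kept, the file's total gene signal, a lower floor, or a trended robust variance, while without scaling 7 lost the call and 1 turned direction. Of the 45 members, 18 turned direction with normexp, 8 each without scaling and with the spike-in probes, and 0 to 4 under each other alternative. Among the miRNAs named by the rule, miR-1839-3p was 0.0056 without scaling and 0.0253 with the spike-in probes. miR-5622-3p was 0.26 without scaling, 0.28 with the spike-in probes, 2.3e-05 with total gene signal, 0.0321 with the brightest probe, 0.0578 without sham 6 and 0.0440 without IRI 2; over the omissions it ranged from -0.127 (without IRI 18) to 0.0578. miR-3473b was -0.00074 without sham 1 and -0.0449 without IRI 18, with 0.377 the highest over the omissions, and miR-3473a -0.0183 and -0.0785, with 0.285 the highest. With normexp background correction, miR-3620-5p was -0.10, miR-1896 -0.10, miR-5131 -0.14 and miR-3154 -0.0604. Over the omissions, miR-5131 ranged from -0.00974 (without IRI 1) to 0.106. Detection in IRI alone brought in miR-1896, miR-5131 and miR-3154, so their fitted values are no measured change between groups. In the reported fit, 3 sham and 3 IRI values of miR-5131 and 2 sham values of miR-3154 lay under the floor. The causes of these turns were not tested. The rank correlation of G share and change ranged from 0.537 to 0.732 over 25 alternatives, an addition made after seeing the data. Signals near background limit the size of any change in the 15 members not well above background on a sham array.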
